A study of Mus musculus with 12 samples.

Results

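Gsk3b, whose product is blocked by the inhibitor CHIR99021 in the medium used to reach naïve pluripotency, was represented in a pooled knockdown screen by 5 short hairpin RNAs of the 3243 hairpins counted. They were chosen by symbol alone, as every row of the count table with the symbol GSK3A or GSK3B, without regard to the counts. All 5 carried GSK3B and the table numbers 125, 126, 127, 128 and 129, by which they are named here. No row (0) of the table used here carried GSK3A, so that gene is not analysed here. The hairpins' sequences and the places they match in the transcript are not among the sources used here, and none is printed.

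Glycogen synthase kinase 3 is a serine and threonine kinase made from 2 genes, Gsk3a and Gsk3b. In the absence of Wnt ligand it marks beta-catenin for destruction by the proteasome, and it adds phosphates to glycogen synthase, MYC and many other proteins, often at places that another kinase has phosphorylated first. CHIR99021 blocks both forms of the enzyme. In mouse embryonic stem cells this block stabilises beta-catenin and, together with a MEK inhibitor, keeps cells in the naïve state, in which the protein UHRF1, a cofactor of DNA methylation, is reduced. In the screen a hairpin lowers its target's RNA, and its share of the reads stands for the share of cells that carry it. Gsk3b RNA was not measured in the data used here, so how far each of these hairpins lowered it was not tested.

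The libraries came from a mouse E14 embryonic stem cell line with a UHRF1-GFP transgene, whose promoter is not given in the sources used here, transduced in Serum/LIF medium with a lentiviral kinase hairpin library. The 12 libraries formed 4 groups of 3, called replicates A, B and C in each group. In 2 groups, 2i GFP+ and 2i GFP-, cells had moved for 7 days to serum-free N2B27 medium with LIF, PD0325901 at 1 µM (a MEK inhibitor) and CHIR99021 at 3 µM and were then sorted for high or lost GFP. Serum/LIF day 7 cells were grown for as long in serum and LIF without either inhibitor and were not sorted, and Serum/LIF day 0 cells mark the start of that growth, after selection in puromycin. Both 2i groups therefore differ from Serum/LIF day 7 in serum, in both inhibitors and in sorting at once, and the parts of these cannot be told apart. Whether replicates came from separate infections, or same-lettered 2i GFP+ and 2i GFP- libraries from the same culture, is not stated. Each p-value thus speaks only to the variation among these libraries.

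Library totals ran from 2435551 to 5466825 counts. The 2i GFP+ libraries held fewer kinds of hairpin, with 1538 to 1906 of the 3243 detected, against 2782 or more in each library of the other groups, and replicate B of 2i GFP+ had both the lowest total and the fewest hairpins. Levels below are CPM, counts scaled to a library total of 1e+06 after TMM normalisation over all 12 libraries, with factors of 0.628 to 0.712 for 2i GFP+ libraries, against 1.08 to 1.21 for the rest. Differences are log2 fold changes of edgeR's quasi-likelihood fit of the pair of groups, with Benjamini-Hochberg adjustment over all hairpins tested, and a hairpin was called enriched or depleted where the adjusted p was below 0.05 and the change exceeded 1 on the log2 scale in either direction.

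The Gsk3b hairpins did not behave alike. Between 2i GFP+ and 2i GFP- cells, hairpin 128 was enriched and hairpins 127 and 129 were depleted, while hairpin 125 did not pass and hairpin 126 had too few counts to be tested. Of the 4 tested, 1 was thus enriched and 2 were depleted. Over all 2600 hairpins tested in this comparison, 8.58% were enriched and 23.5% depleted (32.0% together), so depletion in 2i GFP+ cells was common. These counts depended on single libraries and on the filter. With all libraries 223 hairpins were enriched and 610 depleted, and without 2i GFP+ replicate B 414 and 989. Without 1 of the 2i GFP- replicates A, B and C, 57 to 72 were enriched and 0 to 1 depleted when hairpins were filtered anew. With the tested hairpins kept, these counts were 129 to 138 and 512 to 521. Replicate B of 2i GFP+ correlated less with A and C of its group (Spearman 0.741 and 0.738) than these did with each other (0.933), across hairpins. Hairpin 128 lay wholly above its 2i GFP- libraries and hairpins 127 and 129 wholly below, as did 14.2% and 45.6% of all tested hairpins. Hairpins pointing both ways within a gene were not particular to Gsk3b. Of 669 genes with at least 2 tested hairpins, 182 had at least 1 enriched. Of these 182 genes, 102 (15.2% of the 669) also had at least 1 depleted.

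Hairpin 128 was the one Gsk3b hairpin called enriched in cells that kept UHRF1-GFP when the pair of sorted groups was fitted with all libraries. It stood at 3784, 8395 and 3630 CPM in 2i GFP+ replicates A, B and C, against 1475, 1354 and 1458 CPM in 2i GFP- replicates A, B and C. Serum/LIF day 7 libraries held 1952, 1753 and 1797 CPM, and Serum/LIF day 0 libraries held 1080, 1199 and 1320 CPM. Every 2i GFP+ library lay above each of the other 9, and replicate B, the library with the fewest hairpins, lay farthest up. The groups ran in the order 2i GFP+, Serum/LIF day 7, 2i GFP- and Serum/LIF day 0, with no overlap between neighbours. Within its library the hairpin ranked 32 to 66 of 3243 by count in 2i GFP+ cells, 98 to 112 in 2i GFP- cells, 39 to 50 in Serum/LIF cells at day 7 and 85 to 120 at day 0.

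Against 2i GFP- cells the log2 fold change of hairpin 128 was 1.96 (standard error, SE, 0.400, edgeR adjusted p = 0.0110), a 3.90-fold higher level in 2i GFP+ cells. Scaled by total counts alone it was 1.17 (edgeR adjusted p = 0.0312). The median over all tested hairpins was -0.88, so that hairpin 128 lay 2.85 above it, and it ranked 240 of 2600 by log2 fold change. Without 2i GFP+ replicate B its log2 fold change was 1.42 (edgeR adjusted p = 0.000212). Without 2i GFP- replicate A, B or C the adjusted p from edgeR was 0.129, 0.133 or 0.124 when hairpins were filtered anew, and 0.0495, 0.0538 or 0.0501 when the tested hairpins were kept as they were. The filter had to be met in 3 libraries, and with 1 of the 2i GFP- libraries gone, hairpins absent from 2i GFP+ cells could no longer meet it.

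Hairpin 127 was the most abundant of the 5 when the screen began and moved the opposite way. Serum/LIF day 0 libraries held 2358, 2226 and 2524 CPM in replicates A, B and C, which placed it among the 15 most counted hairpins of each of these libraries. In 2i GFP+ cells 377, 157 and 548 CPM were left, against 1339, 1216 and 1189 CPM in 2i GFP- cells. Serum/LIF day 7 libraries held 2088, 1990 and 2083 CPM. From high to low the order was thus day 0 and then day 7 of Serum/LIF, followed by 2i GFP- and lastly 2i GFP+, again with no overlap between neighbours, and the 2i GFP+ replicate B that was highest for hairpin 128 was the lowest for hairpin 127. Its log2 fold change in 2i GFP+ against 2i GFP- cells was -1.76 (SE 0.469, edgeR adjusted p = 0.0307), or -0.88 relative to the median of all tested hairpins. This call was lost without 2i GFP+ replicate A (edgeR adjusted p = 0.0840) and without any 1 of the 2i GFP- replicates A, B and C (0.233, 0.207 and 0.215, or 0.111, 0.101 and 0.0934 with the tested hairpins kept).

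The ratio of hairpin 128 to hairpin 127 within a library does not depend on how libraries are scaled. It was 10.03, 53.5 and 6.63 in 2i GFP+ replicates A, B and C and 1.10, 1.11 and 1.23 in 2i GFP- replicates A, B and C. At Serum/LIF day 7 it was 0.935, 0.881 and 0.863, and at Serum/LIF day 0 it was 0.458, 0.538 and 0.523. The 4 groups did not overlap in this ratio, and hairpin 127 was the more abundant of the pair in all 6 Serum/LIF libraries and the less abundant in all 6 libraries of 2i cells. Both hairpins were called in opposite directions from the same libraries. The ratio therefore restates those calls and is not separate support for them.

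Hairpin 129 was absent from the 2i GFP+ libraries. It had 0 counts in all 3, against 686, 545 and 358 counts in 2i GFP- replicates A, B and C (197, 151 and 125 CPM). Serum/LIF day 7 libraries held 1963, 2208 and 3127 counts (392, 402 and 510 CPM) and Serum/LIF day 0 libraries 3056, 4142 and 2788 counts (582, 781 and 643 CPM). The level was thus lower with each step of the same order as for hairpin 127, and no neighbours overlapped. With a floor of 3 counts in each 2i GFP+ library, which covers counting error only because PCR reads are not independent molecules, hairpin 129 was at least 116-fold lower in 2i GFP+ than in 2i GFP- cells (edgeR adjusted p = 0.00736). Absence from 2i GFP+ cells was shared by many hairpins: 33.0% of all hairpins in the table had no count in any 2i GFP+ library. Hairpin 129 met the filter only through the 2i GFP- libraries, so it could be called only as depleted. Its p-value is therefore not separate support for that direction. When 1 of the 2i GFP- libraries was left out and hairpins were filtered anew, hairpin 129 could not be tested.

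Hairpin 126 was the scarcest. It had 0 counts in all 3 libraries of 2i GFP+ cells, against 0, 123 and 38 counts in 2i GFP- replicates A, B and C (0, 34.0 and 13.3 CPM). At Serum/LIF day 7 it had 281, 182 and 156 counts (56.1, 33.1 and 25.4 CPM) and at Serum/LIF day 0 it had 515, 334 and 308 counts (98.1, 63.0 and 71.0 CPM). The 2i GFP- libraries overlapped both the 2i GFP+ libraries, through a shared 0, and the Serum/LIF day 7 libraries. With counts in only 2 of the 6 sorted libraries it fell under the filter of 0.5 CPM in at least 3 libraries. Tested with no filter, its adjusted p in 2i GFP+ against 2i GFP- cells was 0.129 from edgeR (unadjusted p = 0.0491), so that it was not called.

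Hairpin 125 spread widely within the 2i GFP+ group. Replicates A, B and C held 280, 388 and 63.2 CPM in 2i GFP+ cells, against 51.2, 96.2 and 74.4 CPM in 2i GFP- cells. Serum/LIF day 7 libraries held 138, 133 and 155 CPM, and Serum/LIF day 0 libraries 170, 352 and 395 CPM. Replicates A and B of 2i GFP+ lay above all 2i GFP- libraries and replicate C lay within their range, and the 2i GFP+ group overlapped each of the other 3. The log2 fold change against 2i GFP- cells was 1.80, nearly that of hairpin 128, but with a standard error of 0.852 (edgeR adjusted p = 0.172). Without 2i GFP+ replicate C it was 2.27, past the thresholds (edgeR adjusted p = 0.0479), and with all 4 groups in 1 fit it was called as well, at 1.73 (edgeR adjusted p = 0.0457), so that 2 Gsk3b hairpins were enriched in either case.

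The comparison of 2i GFP+ with Serum/LIF day 7 cells sets cells that kept UHRF1-GFP under both inhibitors beside cells grown without them. It shares its 2i GFP+ libraries with the comparison above. Hairpin 128 was enriched here too, and hairpins 126, 127 and 129 were depleted, 4 calls among 5 tested hairpins. Over all 2906 hairpins tested, 9.81% were enriched and 31.9% depleted (41.7% together). The 2i GFP+ libraries lay wholly above those of Serum/LIF day 7 for hairpin 128 and wholly below them for the 3 depleted hairpins, as for 14.0% and 53.4% of the tested hairpins. The log2 fold change of hairpin 128 was 1.60 (SE 0.390, edgeR adjusted p = 0.0188), compared with a median of -1.42 over all tested hairpins. Scaled by total counts alone it was 0.77 (edgeR adjusted p = 0.0990), and without 2i GFP+ replicate B it was 1.02 (edgeR adjusted p = 0.000371). The call of hairpin 128 was also lost without Serum/LIF day 7 replicate A, B or C, with the tested hairpins kept (adjusted p = 0.0636, 0.0771 and 0.0717 from edgeR).

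Hairpin 127 had a log2 fold change of -2.46 in 2i GFP+ against Serum/LIF day 7 cells (SE 0.458, edgeR adjusted p = 0.00672). Hairpin 129 was at least 318-fold lower (edgeR adjusted p = 0.00311) and hairpin 126 at least 27.9-fold lower (edgeR adjusted p = 0.00336), both against the floor of 3 counts per library. With no count in 2i GFP+ cells, both met the filter only through the Serum/LIF day 7 libraries and could be called only as depleted. When Serum/LIF day 7 replicate A, B or C was left out and hairpins were filtered anew, none of the 5 was called by edgeR and hairpins 126 and 129 could not be tested. With the tested hairpins kept, the 3 depleted ones were still called in each case. Hairpin 125 had a log2 fold change of 0.86 (SE 0.741, edgeR adjusted p = 0.403), and its 2i GFP+ libraries lay on both sides of the Serum/LIF day 7 libraries.

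In 2i GFP- cells, the cells that lost UHRF1-GFP, all 5 hairpins had lower fitted levels than at Serum/LIF day 7, and only hairpin 129 passed both thresholds. Over all 2981 hairpins tested, 4.16% were enriched, 4.83% were depleted (8.99% together) and the median log2 fold change was -0.05. The log2 fold change of hairpin 129 was -1.46 (SE 0.223, edgeR adjusted p = 0.00292). Hairpin 127 passed on p but not on size, at -0.71 on the log2 scale (SE 0.0823, edgeR adjusted p = 0.000720), and so did hairpin 128, at -0.35 (SE 0.0860, edgeR adjusted p = 0.0231). The 2i GFP- libraries of hairpins 125, 127, 128 and 129 lay wholly below their Serum/LIF day 7 libraries, as did those of 20.2% of the tested hairpins. None (0 of 5) lay wholly above, against 17.4% of the tested hairpins. Hairpin 125 had a log2 fold change of -0.94 (SE 0.334, edgeR adjusted p = 0.0903), and of -1.17 without 2i GFP- replicate B (edgeR adjusted p = 0.0357), which made it a second call. Hairpin 126, with a log2 fold change of -1.27 and a standard error of 1.37, had an adjusted p of 0.614 from edgeR, and its estimate was -0.69 without 2i GFP- replicate A and -2.52 without replicate B. With all 4 groups in 1 fit, the log2 fold change of hairpin 129 was -1.44 and its call was lost (edgeR adjusted p = 0.175), as calls over the whole table fell to 13 enriched and 6 depleted, against 124 and 144 with the pair fitted alone.

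Growth without inhibitors gave no call in the main fit. Between Serum/LIF day 7 and Serum/LIF day 0, edgeR's quasi-likelihood fit called 0 of 5 Gsk3b hairpins. It gave 4 of them an unadjusted p under 0.05, as it did 878 of the 3028 hairpins tested. Hairpin 125 alone was called by exactTest (another test of edgeR) and by DESeq2. It was also called by edgeR's quasi-likelihood fit under total count scaling (adjusted p = 0.0497). Of all 3028 hairpins tested, 3.43% were enriched and 4.00% depleted (7.43% together). Hairpin 128 was the only one with a higher level at day 7, by a log2 fold change of 0.62 (SE 0.111, edgeR adjusted p = 0.0114), under the fold limit. Hairpin 129 had a log2 fold change of -0.62 (SE 0.178, edgeR adjusted p = 0.0553), hairpin 125 of -1.10 (SE 0.334, edgeR adjusted p = 0.0646) and hairpin 126 of -1.01 (SE 0.567, edgeR adjusted p = 0.292). For hairpin 127 it was -0.20 (SE 0.0867, edgeR adjusted p = 0.169). Day 7 libraries lay wholly above the day 0 libraries for hairpin 128, as for 20.7% of the tested hairpins, and wholly below them for the other 4, as for 17.9%. Hairpin 125 was called without Serum/LIF day 0 replicate A, its lowest day 0 library (log2 fold change -1.39, edgeR adjusted p = 0.0112).

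Counted together, the 5 hairpins took a small share of each library, and the hairpin that made up most of it changed. They took 0.316%, 0.561% and 0.298% of the counts in 2i GFP+ replicates A, B and C and 0.333%, 0.312% and 0.310% in 2i GFP- replicates A, B and C. At Serum/LIF day 7 the share was 0.521%, 0.482% and 0.512%, and at Serum/LIF day 0 it was 0.518%, 0.558% and 0.593%. All 2i libraries but 2i GFP+ replicate B lay below all Serum/LIF libraries. Of the Gsk3b counts, hairpin 128 made up 85.2% to 93.9% in 2i GFP+ libraries, 47.5% to 51.0% in 2i GFP- libraries, 39.3% to 42.2% in Serum/LIF libraries of day 7 and 25.2% to 26.6% in those of day 0. A sum over the gene would therefore follow hairpin 128 in 2i GFP+ cells and hairpin 127 at the start.

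The hairpins of other genes whose levels ran most like those of the called Gsk3b hairpins were found by Pearson's r of log2(CPM + 1) over the 12 libraries, among 3067 hairpins of other genes. The libraries fall into groups, so r follows mostly the group differences and is given as a description. Closest to hairpin 128 were hairpin 2308 of Itpka, an inositol trisphosphate kinase (r = 0.987), hairpin 2283 of Ippk, an inositol pentakisphosphate kinase (r = 0.983), and hairpin 1476 of Hunk, a relative of AMP-activated kinase (r = 0.976). Hairpin 2308 of Itpka averaged 3185 CPM in 2i GFP+ cells, 257 in 2i GFP- cells, 408 in Serum/LIF cells at day 7 and 167 at day 0. Those 3 shared with hairpin 128 the order of the 4 group means. Closest to hairpin 127 were hairpin 275 of Acvrl1, a receptor for BMP9 (r = 0.975), hairpin 2178 of Prpf4b, a kinase of pre-mRNA splicing (r = 0.975), and hairpin 1951 of Phkb, a subunit of phosphorylase kinase (r = 0.972). Closest to hairpin 129 were hairpins against 2 tyrosine kinases, 841 of Frk (r = 0.998) and 1174 of Csk (r = 0.995), and hairpin 1262 of the pyruvate dehydrogenase kinase Pdk2 (r = 0.994). The hairpins of Frk and Csk had no count in 2i GFP+ cells, and hairpin 1262 of Pdk2 averaged 0.214 CPM in 2i GFP+ and 128 CPM in 2i GFP- cells.

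MEK1 and MEK2, the products of Map2k1 and Map2k2, are the targets of PD0325901, the other inhibitor of 2i medium. Of their 10 tested hairpins, 1 was enriched and 4 were depleted in 2i GFP+ against 2i GFP- cells, or 10% and 40%, against 8.58% and 23.5% over all tested hairpins, and the median log2 fold change was -2.38, compared with -0.88 over all tested hairpins. Hairpin 2816 of Map2k2 averaged 1169 ± 580 CPM in 2i GFP+ cells and 238 ± 46.1 CPM in 2i GFP- cells (SD, n = 3 each), a log2 fold change of 2.36 (SE 0.497, edgeR adjusted p = 0.0122). Hairpin 2070 of Map2k1 had 0 counts in 2i GFP+ and 1981 counts in 2i GFP- libraries together, at least 146-fold lower. Hairpin 2071 of Map2k2 had 0 counts in 2i GFP+ and 772 counts in 2i GFP- libraries together, so that Map2k2, like Gsk3b, had hairpins called in both directions. With no count in 2i GFP+ cells, hairpins 2070 and 2071 met the filter only through the 2i GFP- libraries. They could be called only as depleted.

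Kinases known to phosphorylate the inhibitory serine near the start of GSK3, among them SGK, S6 kinase, RSK and PKA, gave 3 enriched and 10 depleted of 45 tested hairpins (median log2 fold change -0.66). Hairpin 58 of Prkaca, the catalytic subunit of PKA, averaged 3586 ± 51.2 CPM in 2i GFP+ cells and 814 ± 37.4 CPM in 2i GFP- cells (SD, n = 3 each), a log2 fold change of 2.20 (SE 0.171, edgeR adjusted p = 0.00148). Hairpin 401 of Rps6ka3, which encodes RSK2, averaged 497 ± 73.8 CPM in 2i GFP+ cells and 55.3 ± 29.4 CPM in 2i GFP- cells (edgeR adjusted p = 0.0112). Among the depleted, hairpin 535 of Sgk2 had 0 counts in 2i GFP+ and 2607 counts in 2i GFP- libraries, at least 193-fold lower. It too met the filter only through the 2i GFP- libraries and could be called only as depleted. These shares of 6.67% enriched and 22.2% depleted stood beside 8.58% and 23.5% over all tested hairpins.

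Priming kinases, which phosphorylate proteins that GSK3 then acts on, were casein kinase 2, Dyrk1a and Cdk5. Of their 19 tested hairpins, 5 were enriched and 5 depleted, or 26.3% each way, against 8.58% and 23.5% over all tested hairpins, and the median log2 fold change was 0.58, against -0.88 over all. Hairpin 1932 of Csnk2b, the regulatory subunit of casein kinase 2, averaged 9744 ± 763 CPM in 2i GFP+ cells and 961 ± 45.4 CPM in 2i GFP- cells (SD, n = 3 each), a log2 fold change of 3.40 (SE 0.137, edgeR adjusted p = 0.000107). Hairpin 29 of Cdk5 averaged 1673 ± 304 CPM in 2i GFP+ cells and 318 ± 52.7 CPM in 2i GFP- cells (edgeR adjusted p = 0.00736). Among the depleted, hairpin 18 of Cdk5 had 0 counts in 2i GFP+ and 197 counts in 2i GFP- libraries together. Hairpin 598 of Dyrk1a had 0 and 174 counts there. Hairpin 2484 of Csnk2a1, another casein kinase 2 gene, had 1 and 679. Other kinases of Wnt and beta-catenin signalling, the casein kinase 1 family with Nlk, Map3k7, Ryk, Ror1, Ror2 and Ptk7, had 2 enriched and 7 depleted of 41 tested hairpins, or 4.88% and 17.1%, with a median log2 fold change of -1.04. Hairpin 1212 of Csnk1g2 averaged 4218 ± 2081 CPM in 2i GFP+ cells and 767 ± 95.9 CPM in 2i GFP- cells (SD, n = 3 each), and hairpin 1202 of Csnk1g3 averaged 808 ± 244 CPM in 2i GFP+ cells and 225 ± 86.2 CPM in 2i GFP- cells. Among the depleted, hairpin 1208 of Csnk1d had 0 counts in 2i GFP+ and 4876 counts in 2i GFP- libraries, and hairpin 1234 of Csnk1a1 had 0 and 1111. Hairpin 1240 of Csnk1g1 had 1 count in 2i GFP+ and 3206 counts in 2i GFP- libraries. The hairpins above with 0 counts in 2i GFP+ cells met the filter only through the 2i GFP- libraries. They could be called only as depleted. Gsk3b itself, casein kinases 1 and 2 and PKA were named as candidates by the study from these samples, so that their counts are not independent evidence of a direction. The study listed Gsk3b among genes with at least 2 hairpins identified. Here only hairpin 128 was called enriched, also by edgeR's exactTest (hairpin 125, adjusted p = 0.178), and the reason was not tested. The study also examined Csnk2b by separate knockdown and PKA with an inhibitor, outside these samples.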

How the data were processed

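The authors amplified hairpins from genomic DNA by PCR and sequenced the products (NextSeq), and obtained counts per hairpin with Bowtie2 and a Python script. For tool versions and the hairpin reference, nothing was given in the sources used here. The deposited values are raw counts, and 0 columns were left out. Gsk3 as the subject and the lists were chosen with earlier results of these data known, and the hairpins then followed from the symbol. Every Gsk3a or Gsk3b hairpin was named, with up to 3 called hairpins of each list in each direction and the 3 hairpins of other genes most like each called one.

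For each of 4 pairs of groups, only the libraries of that pair were fitted, by edgeR 4.0.16 under R 4.3.3 (TMM scaling, at least 0.5 CPM in at least 3 libraries, glmQLFit, glmQLFTest). The standard error is the log2 fold change over the square root of F. Where a group had no count, a floor of 3 counts per library gave a bound, scaled as in that pair. The test was tried on simulated counts with the same variability for every hairpin and none lost from a whole group. That trial does not bear on how reliable the calls here are. Alternatives were RLE and total count scaling, no filter, filterByExpr, exactTest (which the methods name), DESeq2 1.42.0, a fit of all groups, a replicate block and leaving out each library, with hairpins filtered anew or kept. Of 732 symbols, 660 matched a mouse gene by symbol and 68 by synonym in the GRCm38.p6 gene table. Sgk1 is listed as SGK, and Dyrk2 and Tnik are not analysed here. Of the hairpins this rule names, 1 is not reported here.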

Additional observations from a re-analysis of the deposited data

How the results depend on the processing

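In 2i GFP+ against 2i GFP- cells, 3 Gsk3b hairpins were called, and 3 or 4 were called under RLE or total count scaling, no filter, filterByExpr, exactTest, DESeq2 and all groups in 1 fit. Leaving out 1 library gave 0 to 4 calls with hairpins filtered anew, as calls over the whole table ranged widely too (57 enriched and 1 depleted without 2i GFP- replicate A, 414 and 989 without 2i GFP+ replicate B), and 1 call without 2i GFP- replicate B or C when the tested hairpins were kept. With the tested hairpins kept, 131 were enriched and 512 depleted in the whole table without 2i GFP- replicate A. In 2i GFP+ against Serum/LIF day 7 cells, 4 were called and leaving out 1 library gave 0 to 4. In 2i GFP- against Serum/LIF day 7 cells, 1 was called, 0 with all groups in 1 fit, 1 to 2 on leaving out a library, and 2 without 2i GFP- replicate B. In Serum/LIF day 7 against day 0, 0 were called, 1 under total count scaling, exactTest or DESeq2, and 0 to 1 on leaving out a library. No log2 fold change of a tested Gsk3b hairpin changed sign under any of these alternatives.

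With the replicate letter as a block, 0 of the Gsk3b hairpins were called in 2i GFP+ against either group, and 66 hairpins were enriched and 1 depleted in the whole table between 2i GFP+ and 2i GFP- cells, compared with 223 and 610 without it. Deviations from the group means of same-lettered libraries correlated between -0.0392 and 0.0276 over the 4 comparisons, so the letters marked little shared variation. This cannot show whether same-lettered libraries were paired, and the sources used here do not state it. Under total count scaling that comparison had a median of -1.60 on the log2 scale, with 125 enriched and 719 depleted hairpins. A floor of 3 counts, the limit that depth sets, was 0.916 to 1.96 CPM in 2i GFP+ libraries.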
